A study of Arabidopsis thaliana with 18 samples.

Results

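The genes described here are 42 Arabidopsis loci of the cell division machinery, of 32399 loci with a row in the deposited files. They were listed by locus: the A, B and D cyclins, the kinases CDKA and CDKB, the KRP inhibitors with SIM and WEE1, the sliding clamp genes PCNA1 and PCNA2, the helicase subunit genes MCM2 to MCM7, and the cytokinesis genes KNOLLE and HINKEL. By the phase in which they act, 10 were counted as S phase genes (MCM, PCNA and the A3 cyclins), 19 as G2 and M phase genes (B cyclins, A1 and A2 cyclins, CDKB, KNOLLE and HINKEL) and 6 as G1 genes (D cyclins). The other members were CDKA;1 and the 6 inhibitors. These classes are not strict, since A1 and A2 cyclins act, and CDKB1 kinases are made, from S phase on.

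Whole seedlings 12 d old of 3 genotypes were compared by mRNA sequencing, with the plants kept at 22 °C under 16 h of light: wild type and plants carrying the mutant allele ros1-3 or ros1-4. The affected gene codes for the enzyme ROS1, which cuts methylated cytosine out of DNA. Before harvest the seedlings were submerged for 6 h in water with 50 µM abscisic acid (ABA, the hormone of drought and dormancy) or with the solvent but no hormone (mock). There were 6 groups of 3 libraries, each from 5 pooled plants, and nothing in the labels says whether the pools were grown or treated separately, so the p-values measure the spread between these libraries.

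In plants, D cyclins with CDKA start the cycle by releasing E2F transcription factors from the retinoblastoma protein, E2F then switches on the genes of DNA synthesis, and A and B cyclins with CDKB drive mitosis, many of them under MYB factors that bind the mitosis-specific activator element. The KRP and SIM proteins inhibit the kinases, and SIM favours the endocycle, in which DNA is copied without division. In a seedling, dividing cells are a small part of the tissue, held in the shoot and root tips, young leaves and lateral root primordia. ABA is known to slow growth and cell division.

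The libraries held 3304038 to 10275773 reads counted to genes. The targeted gene ROS1 (AT2G36490) was lower in the mutants than in wild type, at log2 -0.70 (SE 0.11) for ros1-3 and -1.34 (SE 0.12) for ros1-4 in mock, though its transcripts were still counted in both alleles. The share of multiply aligned reads in a library's total did not overlap between genotypes in mock, at 9.80% to 13.0% in wild type, 6.53% to 9.45% in ros1-3 and 3.46% to 4.62% in ros1-4. Once that share was added to the model, the ROS1 value in ros1-3 was -0.62 and did not pass. Because the share goes with genotype, that model cannot fully tell share and genotype apart. The ABA response genes RD29A, HAI1 and ABI1 rose in the average over the genotypes by log2 4.93, 7.22 and 2.48, and their summed level did not overlap between mock (114 to 145 CPM, that is, counts scaled to a library total of 1000000 after TMM normalization) and ABA (1069.6 to 1535 CPM). Leaf and root markers were both counted in every group.

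Of the 42 genes, 33 had enough reads to be tested, and 9 did not. The untested members were CYCA2;1 (AT5G25380), CYCA3;2 (AT1G47210), CYCD2;1 (AT2G22490), CYCD4;1 (AT5G65420), CDKB1;2 (AT2G38620), KRP3 (AT5G48820), MCM2 (AT1G44900), MCM5 (AT2G07690) and MCM7 (AT4G02060). They held 1 read (MCM7) to 103 reads (KRP3) over the 18 libraries. Of these 9, 8 have several transcript models in the deposited tables, and a read that fits several models of a locus is not counted there. MCM7, with 2 models, had 1 read in 18 libraries, so its level and those of the other 7 are not measured by these counts and say nothing of how strongly the genes are transcribed. CYCA2;1 has 1 model and 55 reads.

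Promoter sequence is shown for the member of each role group with the smallest p for the ABA effect among those that were lower in ABA and hold a searched motif. The window was the 250 bases before the annotated gene start in RefSeq TAIR10.1, searched on both strands for the mitosis-specific activator core AACGG and for the E2F site, written TTT, then 2 letters that are each C or G, then CG, then C or G. Capitals mark the matches. Each line reads 5′ to 3′ along the gene's strand, from 20 bases before the outermost match on one side to 20 bases after the outermost match on the other, or to the window's edge.
CYCB1;3: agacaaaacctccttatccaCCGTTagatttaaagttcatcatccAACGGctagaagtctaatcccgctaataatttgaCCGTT
HINKEL: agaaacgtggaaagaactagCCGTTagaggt
CYCA3;1: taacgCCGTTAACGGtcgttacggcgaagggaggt
MCM3: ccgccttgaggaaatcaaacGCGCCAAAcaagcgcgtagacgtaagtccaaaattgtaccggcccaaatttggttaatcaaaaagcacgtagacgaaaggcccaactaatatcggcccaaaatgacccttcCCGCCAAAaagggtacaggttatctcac
CYCD3;3: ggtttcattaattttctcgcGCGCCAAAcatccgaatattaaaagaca
The stretches lie at chr3:3627274-3627357 (minus strand) for CYCB1;3, chr1:6324379-6324409 (minus strand) for HINKEL, chr5:17292702-17292736 (plus strand) for CYCA3;1, chr5:18773738-18773896 (minus strand) for MCM3 and chr3:18566911-18566958 (minus strand) for CYCD3;3. The 3 matches before CYCB1;3, a cyclin of mitosis, begin 64, 39 and 5 bases before its start, and the 2 cores before CYCA3;1, a cyclin of S phase, adjoin each other in opposite directions. Of the 19 G2 and M phase promoters 11 (57.9%) held the activator core, beside 2 of 10 (20%) in S phase, 1 of 6 (16.7%) in G1 and 20.6% of 27438 protein-coding promoters of the same length. The E2F site was in 5 of 10 S phase promoters (50.0%), those of MCM2 to MCM6, in 0 of 19 of G2 and M phase, in 1 of 6 of G1 (CYCD3;3) and in 2.80% of all promoters. The inhibitor gene KRP1 held 6 activator cores. By the choice made, every stretch shown pairs a fall with a match. CYCB1;1, CYCB2;2, MCM4 and MCM6 also held a match and were called lower in the average over the genotypes. PCNA1, PCNA2, CYCB1;4, CYCB2;4, CYCA2;4, CDKB1;1 and SIM were called lower with no match. CYCB1;2, CYCB2;1, CYCB2;3, CYCA1;1, CYCD3;1, CDKB2;2, KRP1, KRP2, WEE1 and KNOLLE held the activator core and were not called. A link between match and fall was not tested. A match is only a run of letters and does not show that a factor binds there.

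**Figure D1:**
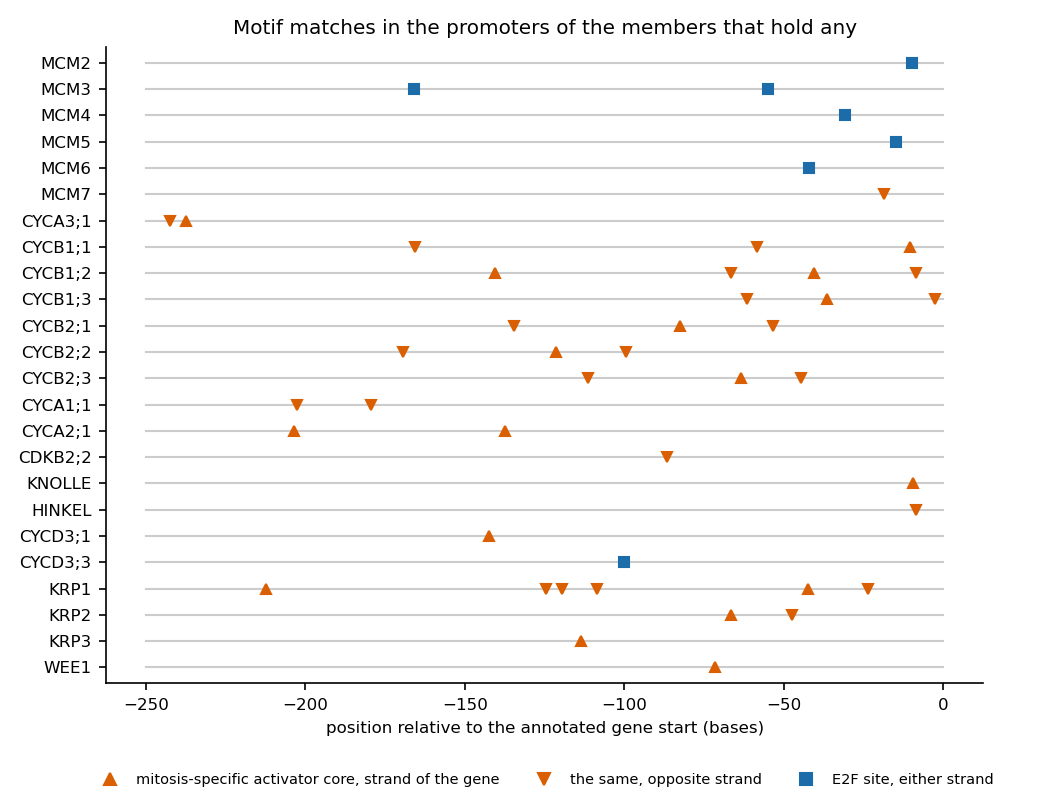
Positions of the motif matches in the 250 bases before the annotated start (x axis, in bases) of each member that holds any (y axis), with triangles for the activator core by strand and squares for the E2F site. The E2F site is seen in MCM2 to MCM6 and CYCD3;3, and CYCB1;1, CYCB1;2, CYCB1;3, CYCB2;1, CYCB2;2 and CYCB2;3 hold 3 or more activator cores.

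In ABA, 16 of the 33 tested genes were lower than in mock in the average over the 3 genotypes and 0 were higher (edgeR's quasi-likelihood test, adjusted p under 0.05 over 15853 loci). That is 48.5% of the tested members, beside 59.4% of all loci called in either direction and 30.3% called lower. All 6 tested S phase genes fell (PCNA1, PCNA2, MCM3, MCM4, MCM6 and CYCA3;1), with a median log2 change of -0.69. Of 17 tested genes of G2 and M phase 8 fell, with a median of -0.30, and of 4 tested D cyclins 1 fell (CYCD3;3), with a median of -0.10. CDKA;1 did not pass the test, and of 5 tested inhibitors 1 fell (SIM). The median over the 33 genes was -0.33, with 30 values below 0, and the median over all loci was -0.01. Some of these calls are fragile: 12 of the 16 were kept under every alternative processing and without any 1 library, and CYCA2;4, CYCA3;1, CYCB2;4 and MCM4 lost theirs under at least 1, as given with their values. With scaling to library totals in place of TMM, 25 of 33 were lower, and the median of all loci moved to -0.15, so changes are stated relative to TMM scaling. These are bulk samples, in which fewer dividing cells and less RNA per dividing cell cannot be told apart.

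Within single genotypes fewer genes passed. In wild type 10 of 33 were lower (30.3%, beside 18.5% of all loci called lower and 38.5% called either way), in ros1-3 7 (21.2%, beside 18.5% and 38.2%) and in ros1-4 11 (33.3%, beside 18.4% and 38.2%), and 0 were higher in each. PCNA1, PCNA2, MCM3, MCM6 and CYCB1;3 were called lower in each of the 3 genotypes, which is 15.2% of the 33 members beside 11.9% of all loci, and 20 members were called in none. Once the multiply aligned share was added to the model, the wild type counts were 6 lower and 1 higher (CYCB2;3). The ros1-3 count fell to 2 without ros1-3 mock replicate 1 or without ros1-3 ABA replicate 2, and to 3 without ros1-3 mock replicate 3. The ros1-4 count was 7 without ros1-4 ABA replicate 1. The test of whether the ABA effect differed between genotypes called 0 of 33 members in ros1-3 and 0 in ros1-4 by edgeR and by DESeq2, and 0% of all loci by edgeR. At an unadjusted p under 0.05 these tests held 2 and 0 members, and 743 and 521 loci.

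**Figure D2:**
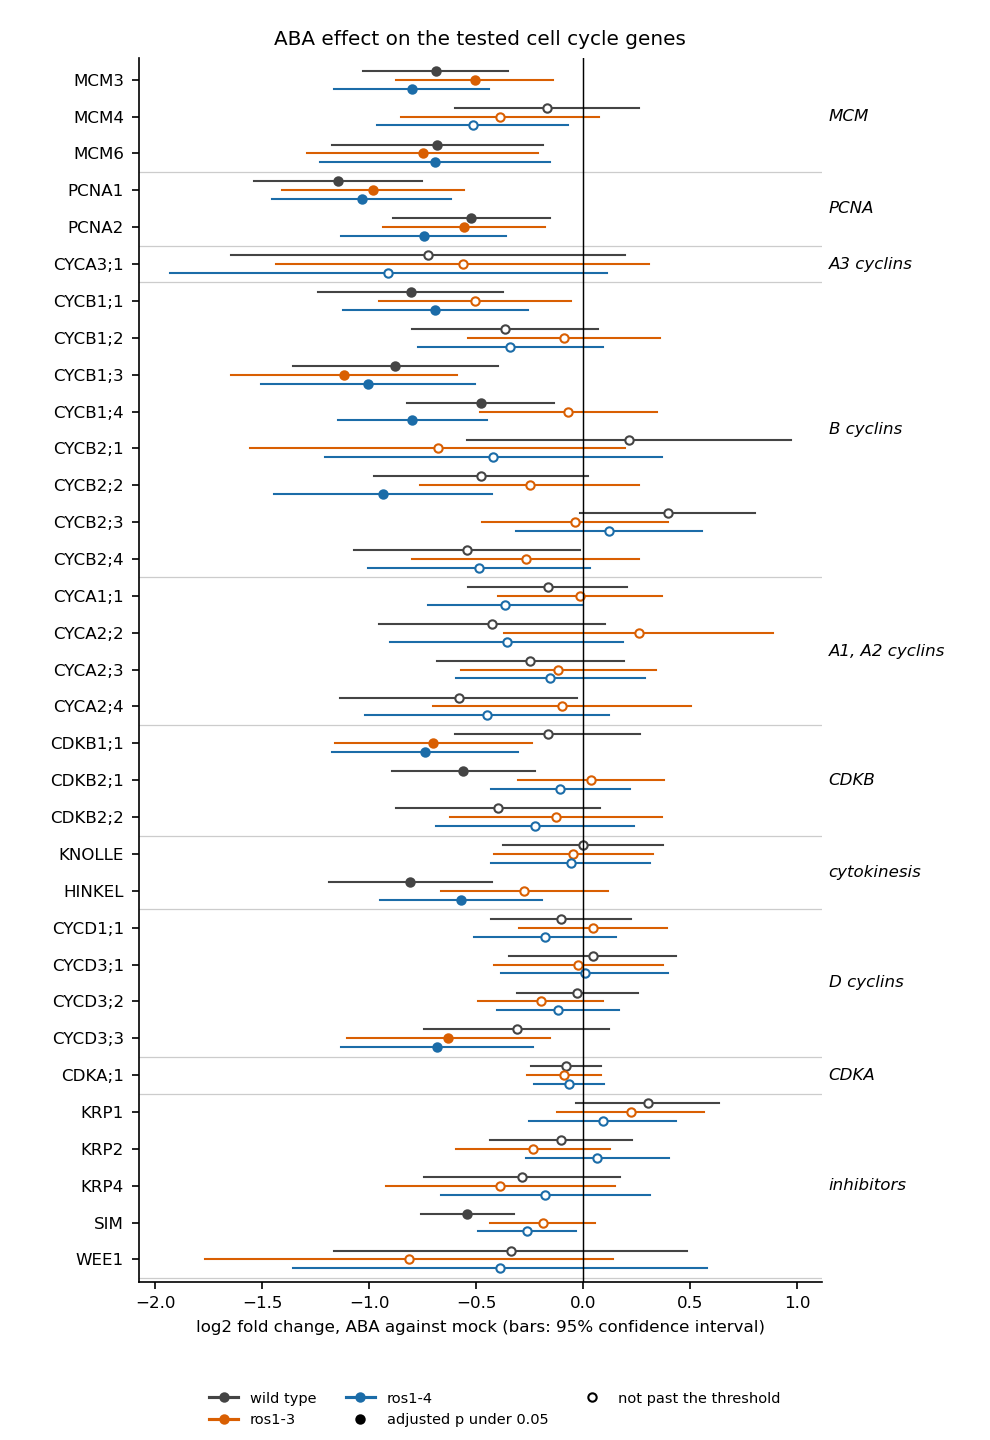
Log2 fold change of ABA against mock (x axis) for each of the 33 tested genes (y axis, by role) in wild type, ros1-3 and ros1-4, with 95% confidence intervals as bars and filled points for adjusted p under 0.05. All filled points lie below 0, and PCNA1, PCNA2, MCM3, MCM6 and CYCB1;3 have 3 of them each.

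Root markers moved with the same contrast. The 3 root genes CASP1, PHT1;1 and EXT2 all fell in the average over the genotypes (log2 -1.59, -2.55 and -1.54), and their summed level went from 139 to 322 CPM over the mock libraries to 48.2 to 88.1 CPM over the ABA libraries, without overlap. Of 5 root meristem genes 4 fell, PLT1 (-1.29), PLT2 (-1.21), SHR (-0.47) and SCR (-0.24), and WOX5 (-0.00062, SE 0.26) did not pass. Their summed level was 69.5 to 89.8 CPM in mock and 59.0 to 70.8 CPM in ABA, without overlap within any genotype. Most of that sum came from SCR and SHR, with 4434 and 2264 reads over the 18 libraries. PLT1, PLT2 and WOX5 held 178, 149 and 188 reads. Of 5 shoot meristem genes 3 were tested and KNAT1 alone was called (-0.45), a call lost without any 1 of 8 libraries (values of -0.45 to -0.29) and with the multiply aligned share in the model (-0.39). ANT (-0.32) and STM (-0.18) did not pass, CLV3 was at 0 in every library and WUS in every group but ros1-4 ABA. Summed over the list, shoot meristem genes were at 13.7 to 57.5 CPM in mock and 17.4 to 33.3 CPM in ABA, with overlap. The leaf genes LHCB1.1 (0.89) and CAB3 (0.31) rose and RBCS1A fell (-0.17). The CAB3 call was lost with scaling to library totals (0.17), and the RBCS1A call without ros1-4 ABA replicate 2 (-0.14) and with the multiply aligned share in the model (-0.16). The sum of the 3 leaf genes was 9077 to 12138 CPM in mock and 11256 to 15067 CPM in ABA. The lateral root genes GATA23 and LRP1 had too few reads to be tested. The part of these tissue markers in the fall of the cell cycle genes was not tested.

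Of the tested S phase genes PCNA1, which codes for the sliding clamp that holds DNA polymerase on its template, had the largest averaged change. In wild type, PCNA1 stood at 21.3, 17.7 and 13.3 CPM in mock and at 6.997, 8.30 and 7.64 CPM in ABA. In ros1-3 it was at 17.4, 16.4 and 22.0 CPM in mock and at 9.74, 7.97 and 10.4 CPM in ABA. The ros1-4 libraries held 13.3, 16.0 and 14.4 CPM in mock and 4.99, 7.97 and 8.27 CPM in ABA. All ABA libraries lay below all mock libraries of PCNA1 (AT1G07370) in each genotype. By edgeR its log2 change was -1.15 (SE 0.19, adjusted p = 4.51e-05) in wild type, -0.98 (SE 0.20, adjusted p = 0.000558) in ros1-3 and -1.04 (SE 0.20, adjusted p = 0.000281) in ros1-4. The average over the genotypes was -1.05 (SE 0.11, adjusted p = 4.81e-08) by edgeR, and no alternative processing or left-out library ended any of these 4 calls.

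The other clamp gene, PCNA2 (AT2G29570), fell by less. In wild type, PCNA2 stood at 23.0, 17.3 and 16.7 CPM in mock and at 16.5, 9.81 and 12.0 CPM in ABA. Its ros1-3 level was 26.0, 22.2 and 28.2 CPM in mock and 17.8, 14.8 and 19.2 CPM in ABA. For ros1-4 the levels were 18.5, 17.7 and 19.8 CPM in mock and 8.70, 11.9 and 12.8 CPM in ABA. Every ABA library lay below every mock library of its genotype, in wild type by a margin of under 1 CPM. By edgeR the log2 change was -0.52 (SE 0.18, adjusted p = 0.0223) in wild type, -0.56 (SE 0.18, adjusted p = 0.0189) in ros1-3, -0.75 (SE 0.19, adjusted p = 0.00274) in ros1-4 and -0.61 (SE 0.10, adjusted p = 3.05e-05) in the average. Leaving out wild type mock replicate 1 (-0.39), wild type ABA replicate 2 (-0.37) or replicate 3 (-0.47) ended the wild type call. Leaving out mock replicate 1 (-0.53) or 3 (-0.48) or ABA replicate 2 (-0.46) of ros1-3 ended the call there. PCNA2 overlaps AT2G29560 on the opposite strand, and the strand setting of the counting was not given in the sources used here.

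MCM2 to MCM7 encode the ring of subunits that forms the core of the replicative helicase, and 3 of the 6 were tested. In wild type, MCM3 stood at 18.8, 16.4 and 15.1 CPM in mock and at 9.86, 10.11 and 10.8 CPM in ABA. The ros1-3 libraries held 17.4, 18.1 and 17.8 CPM in mock and 9.99, 12.6 and 14.8 CPM in ABA. Mock libraries of ros1-4 stood at 14.1, 18.2 and 13.8 CPM and ABA libraries at 6.42, 10.6 and 9.47 CPM. For MCM3 (AT5G46280), whose promoter stretch with 2 E2F sites is shown above, no ABA library reached a mock library of its genotype. Its log2 change by edgeR was -0.69 (SE 0.16, adjusted p = 0.00178) in wild type, -0.51 (SE 0.18, adjusted p = 0.0272) in ros1-3, -0.80 (SE 0.17, adjusted p = 0.000873) in ros1-4 and -0.67 (SE 0.10, adjusted p = 4.72e-06) in the average. The ros1-3 call was lost without any 1 of 5 libraries (mock replicates 1, 2 and 3 and ABA replicates 1 and 2, with values of -0.52 to -0.37) and in DESeq2 (-0.50).

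MCM6 (AT5G44635) moved by a like amount with fewer reads behind it. In wild type, MCM6 stood at 9.76, 10.3 and 7.56 CPM in mock and at 5.85, 4.83 and 5.99 CPM in ABA. For ros1-3 the levels were 12.2, 11.8 and 7.53 CPM in mock and 7.06, 4.21 and 7.73 CPM in ABA. In ros1-4 it was at 5.38, 9.69 and 8.41 CPM in mock and at 3.71, 4.82 and 5.75 CPM in ABA. The groups did not overlap in wild type and overlapped in the mutants, where ros1-3 mock replicate 3 and ros1-4 mock replicate 1 were low. By edgeR the log2 change was -0.68 (SE 0.24, adjusted p = 0.027) in wild type, -0.75 (SE 0.26, adjusted p = 0.0263) in ros1-3, -0.69 (SE 0.26, adjusted p = 0.0389) in ros1-4 and -0.71 (SE 0.15, adjusted p = 0.000238) in the average. The average kept its call throughout, whereas the calls in single genotypes did not. In wild type it was lost without mock replicate 1 (-0.63) or 2 (-0.59) or ABA replicate 1 (-0.72) or 2 (-0.60), in ros1-3 without mock replicate 1 (-0.62) or 2 (-0.67) or ABA replicate 2 (-0.52), and in ros1-4 without mock replicate 2 (-0.52) or 3 (-0.62) or ABA replicate 1 (-0.53) or 2 (-0.69). The ros1-4 call was also lost with the replicate number as a block (-0.69), in DESeq2 (-0.70) and with the compared groups alone (-0.70), and the wild type call once the multiply aligned share was added to the model (-0.46).

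MCM4 (AT2G16440) passed in the average only. In wild type, MCM4 stood at 16.3, 10.9 and 11.9 CPM in mock and at 11.8, 8.00 and 14.2 CPM in ABA. Mock libraries of ros1-3 stood at 17.8, 14.6 and 15.9 CPM and ABA libraries at 9.99, 11.3 and 15.7 CPM. Its ros1-4 level was 13.5, 15.5 and 13.3 CPM in mock and 7.13, 10.8 and 11.5 CPM in ABA. ABA and mock libraries overlapped in wild type and in ros1-3 and stood apart in ros1-4. By edgeR the average was -0.36 (SE 0.12, adjusted p = 0.017), and the values in wild type (-0.17), ros1-3 (-0.39) and ros1-4 (-0.52) did not pass. Once the multiply aligned share was added to the model, the average was -0.31 and did not pass.

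CYCA3;1 (AT5G43080), a cyclin that acts at the onset of S phase, was counted at few reads. In wild type, CYCA3;1 stood at 1.75, 1.23 and 1.39 CPM in mock and at 1.15, 0.755 and 0.599 CPM in ABA. In ros1-3 it was at 3.57, 2.52 and 1.12 CPM in mock and at 2.44, 0.886 and 1.77 CPM in ABA. The ros1-4 libraries held 0.996, 1.21 and 1.87 CPM in mock and 0.570, 0.742 and 0.839 CPM in ABA. Its ABA libraries lay below the mock libraries in wild type and ros1-4 and overlapped them in ros1-3, where mock replicate 3 was low. The average was -0.73 (SE 0.26, adjusted p = 0.0199) by edgeR, and no single genotype passed. Leaving out ros1-3 mock replicate 1 (-0.58) or ros1-4 mock replicate 3 (-0.62) ended the call, as did DESeq2 (-0.74).

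**Figure D3:**
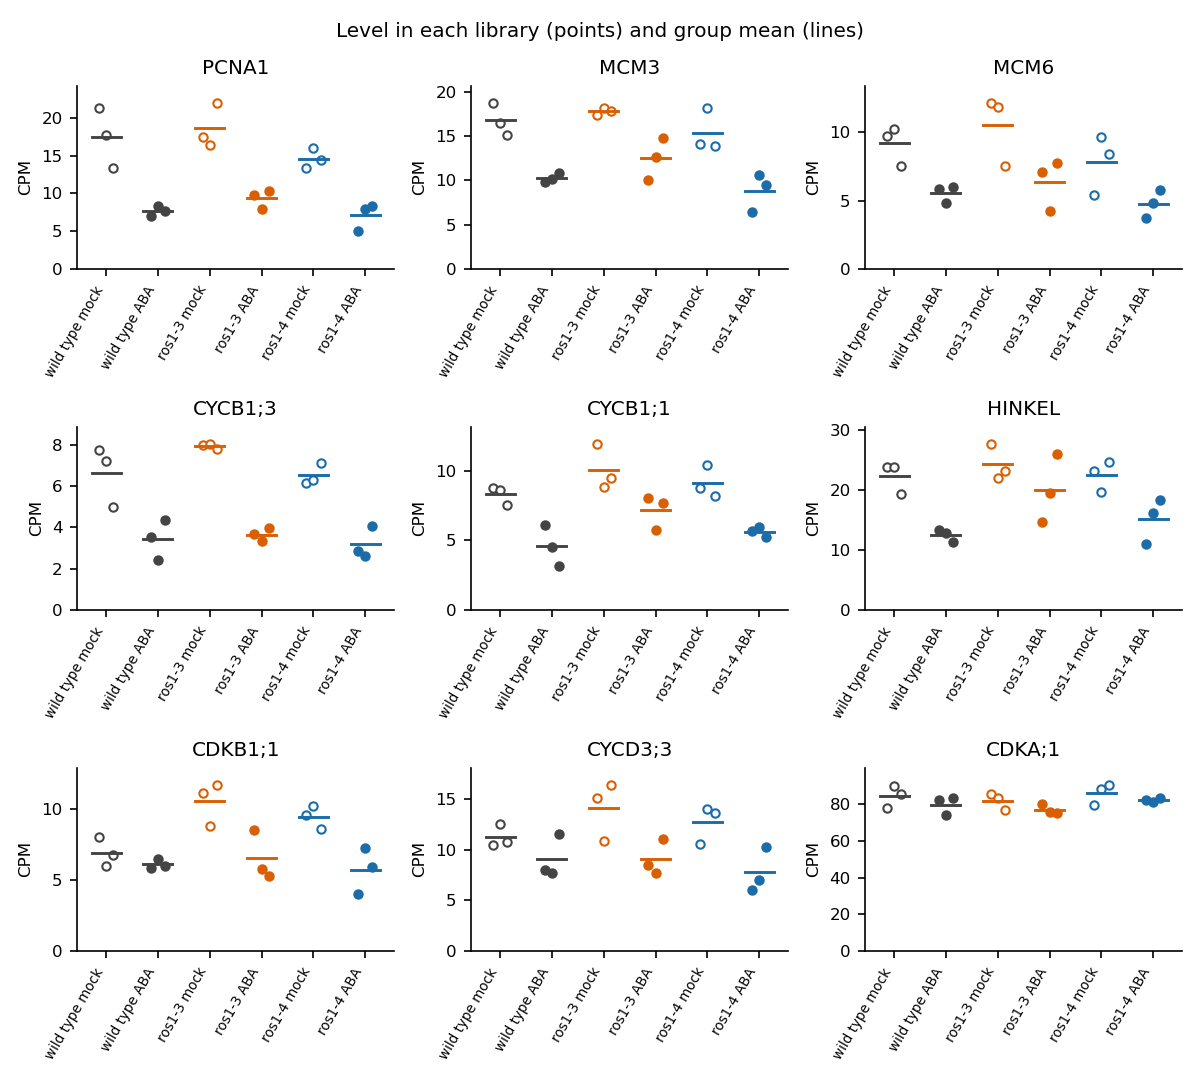
Level in CPM (y axis, from 0) of 9 members in each library by group (x axis), with open points for mock, filled points for ABA and a line at each group's mean. PCNA1, MCM3, CYCB1;3 and CYCB1;1 do not overlap between mock and ABA in any genotype, and CDKA;1 stays between 74.3 and 90.8 CPM in all 18 libraries. All genes drawn but CDKA;1 were called lower in the average, so some separation follows from the choice. The share of all loci without such overlap is not given here.

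B cyclins bind the mitotic kinases and are made from G2 to metaphase. Of the 8, 5 fell in the average: CYCB1;1, CYCB1;3, CYCB1;4, CYCB2;2 and CYCB2;4. In wild type, CYCB1;3 stood at 7.76, 7.19 and 4.97 CPM in mock and at 3.56, 2.42 and 4.35 CPM in ABA. Its ros1-3 level was 7.98, 8.06 and 7.81 CPM in mock and 3.65, 3.32 and 3.97 CPM in ABA. For ros1-4 the levels were 6.17, 6.30 and 7.10 CPM in mock and 2.85, 2.60 and 4.08 CPM in ABA. In CYCB1;3 (AT3G11520) every ABA library lay below every mock library of the same genotype. Its log2 change by edgeR was -0.88 (SE 0.23, adjusted p = 0.00413) in wild type, -1.12 (SE 0.25, adjusted p = 0.0013) in ros1-3 and -1.01 (SE 0.24, adjusted p = 0.00199) in ros1-4, with -1.001 in the average. The wild type value was -0.54 and did not pass once the multiply aligned share was added to the model, a share that was lower in wild type ABA (6.32% to 11.4%) than in wild type mock (9.80% to 13.0%), with overlap.

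CYCB1;1 (AT4G37490), widely used as a marker of cells in G2 and M phase, fell in wild type and ros1-4. In wild type, CYCB1;1 stood at 8.76, 8.63 and 7.56 CPM in mock and at 6.08, 4.53 and 3.15 CPM in ABA. The ros1-3 libraries held 12.0, 8.81 and 9.48 CPM in mock and 8.04, 5.76 and 7.73 CPM in ABA. Mock libraries of ros1-4 stood at 8.76, 10.4 and 8.22 CPM and ABA libraries at 5.70, 5.93 and 5.27 CPM. The ABA and mock libraries did not overlap in any genotype, and the ros1-3 ABA libraries were close under the mock libraries. By edgeR the log2 change was -0.81 (SE 0.21, adjusted p = 0.00361) in wild type, -0.51 (SE 0.22, adjusted p = 0.07) in ros1-3, which did not pass, -0.69 (SE 0.21, adjusted p = 0.0111) in ros1-4 and -0.67 (SE 0.12, adjusted p = 6.01e-05) in the average. Leaving out ros1-4 mock replicate 2 (-0.59) ended the ros1-4 call. The difference between ros1-3 and wild type in this response was 0.30 (SE 0.30) and did not pass.

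CYCB1;4 (AT2G26760) fell in the average, in wild type and in ros1-4. In wild type, CYCB1;4 stood at 11.3, 11.9 and 9.35 CPM in mock and at 6.77, 7.25 and 8.99 CPM in ABA. For ros1-3 the levels were 9.24, 7.05 and 6.97 CPM in mock and 8.28, 6.42 and 7.73 CPM in ABA. In ros1-4 it was at 12.5, 11.6 and 13.8 CPM in mock and at 6.56, 7.23 and 8.03 CPM in ABA. In ros1-3 the groups overlapped, and all its mock libraries lay below those of wild type and ros1-4. By edgeR the log2 change was -0.48 (SE 0.17, adjusted p = 0.0257) in wild type, -0.071 (SE 0.20, adjusted p = 0.813) in ros1-3, which did not pass, -0.80 (SE 0.17, adjusted p = 0.000637) in ros1-4 and -0.45 (SE 0.10, adjusted p = 0.000701) in the average. In wild type the call ended when mock replicate 1 (-0.45) or 2 (-0.40) or ABA replicate 1 (-0.39) or 2 (-0.45) was left out, in DESeq2 (-0.48) and once the multiply aligned share was added to the model (-0.26).

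The other B cyclins were less uniform. CYCB2;2 (AT4G35620) fell in the average (-0.55, SE 0.14, adjusted p = 0.00184 by edgeR) and in ros1-4 (-0.93), with values of -0.48 and -0.25 in wild type and ros1-3 that did not pass. CYCB2;4 (AT1G76310) fell in the average alone (-0.43, SE 0.15, adjusted p = 0.0144 by edgeR), and without ros1-3 mock replicate 1 its value was -0.32 and did not pass. CYCB1;2 (AT5G06150, -0.27, SE 0.12), CYCB2;1 (AT2G17620, -0.30, SE 0.23) and CYCB2;3 (AT1G20610, 0.16, SE 0.12) did not pass in any genotype. CYCB1;2 was called lower in the average with library totals (-0.41), no filter on low counts (-0.25) or the multiply aligned share in the model (-0.35). The same held without wild type mock replicate 2 or 3 or ABA replicate 1, ros1-3 mock replicate 2, or ros1-4 mock replicate 1 or ABA replicate 3 (-0.34 to -0.30). CYCB2;3 was called higher in wild type once the multiply aligned share was added to the model (0.64). Of the 50-base stretches of CYCB1;2 exons 11.3% were found more than once in the genome, and of CYCB2;3 exons 17.0%, so their counts are less certain.

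A1 and A2 cyclins act from S phase to mitosis, and 4 of the 5 were tested. In wild type, CYCA2;4 stood at 9.51, 8.43 and 8.85 CPM in mock and at 5.05, 4.08 and 8.84 CPM in ABA. Mock libraries of ros1-3 stood at 11.1, 6.30 and 8.64 CPM and ABA libraries at 7.31, 9.08 and 8.17 CPM. Its ros1-4 level was 6.17, 8.97 and 11.4 CPM in mock and 4.42, 8.34 and 6.95 CPM in ABA. CYCA2;4 (AT1G80370) overlapped between mock and ABA in every genotype. Its average of -0.38 (SE 0.16, adjusted p = 0.0481) by edgeR was just past the threshold, and it was lost without any 1 of 14 libraries (values of -0.40 to -0.29), in DESeq2 (-0.37) and once the multiply aligned share was added to the model (-0.26).

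In wild type, CYCA1;1 stood at 7.51, 6.99 and 6.37 CPM in mock and at 5.96, 6.04 and 6.29 CPM in ABA. In ros1-3 it was at 9.87, 8.31 and 8.92 CPM in mock and at 8.28, 9.52 and 9.05 CPM in ABA. The ros1-4 libraries held 9.16, 8.00 and 10.7 CPM in mock and 5.85, 9.09 and 7.07 CPM in ABA. CYCA1;1 (AT1G44110), a mitotic A cyclin, was lower in all 3 wild type ABA libraries than in wild type mock and overlapped in the mutants. Its average was -0.18 (SE 0.10, adjusted p = 0.134) by edgeR and did not pass. In wild type, CYCA2;3 stood at 15.3, 19.9 and 17.0 CPM in mock and at 14.6, 11.6 and 17.8 CPM in ABA. Its ros1-3 level was 25.6, 18.9 and 20.3 CPM in mock and 20.22, 23.0 and 17.0 CPM in ABA. For ros1-4 the levels were 13.3, 20.11 and 23.4 CPM in mock and 11.6, 18.7 and 20.7 CPM in ABA. Libraries of CYCA2;3 (AT1G15570), a gene with an opposite-strand neighbour that overlaps it, overlapped in each genotype, and its average was -0.17 (SE 0.12, adjusted p = 0.242) by edgeR. CYCA2;2 (AT5G11300) was at -0.18 (SE 0.16) and did not pass either.

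CDKB kinases are made only in dividing cells, CDKB1 from S phase on and CDKB2 in G2 and M phase. In wild type, CDKB1;1 stood at 8.01, 5.96 and 6.76 CPM in mock and at 5.85, 6.49 and 5.99 CPM in ABA. The ros1-3 libraries held 11.1, 8.81 and 11.7 CPM in mock and 8.53, 5.76 and 5.30 CPM in ABA. Mock libraries of ros1-4 stood at 9.56, 10.2 and 8.60 CPM and ABA libraries at 3.99, 7.23 and 5.87 CPM. CDKB1;1 (AT3G54180) was lower in every ABA library than in every mock library of ros1-3 and of ros1-4, while the wild type libraries overlapped. By edgeR its log2 change was -0.17 (SE 0.21, adjusted p = 0.568) in wild type, which did not pass, -0.70 (SE 0.22, adjusted p = 0.0153) in ros1-3, -0.74 (SE 0.21, adjusted p = 0.00739) in ros1-4 and -0.54 (SE 0.12, adjusted p = 0.000717) in the average. Leaving out mock replicate 1 (-0.65) or 3 (-0.62) or ABA replicate 2 (-0.62) or 3 (-0.57) of ros1-3 ended the call there, and leaving out ros1-4 ABA replicate 1 (-0.54) ended that in ros1-4. The difference of each mutant from wild type did not pass (-0.53, SE 0.30 and -0.57, SE 0.30).

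CDKB2;1 (AT1G76540) fell in wild type. In wild type, CDKB2;1 stood at 33.8, 31.0 and 30.3 CPM in mock and at 21.7, 19.6 and 22.8 CPM in ABA. For ros1-3 the levels were 38.6, 26.4 and 41.0 CPM in mock and 35.8, 40.5 and 32.5 CPM in ABA. In ros1-4 it was at 26.5, 37.1 and 41.3 CPM in mock and at 27.0, 38.2 and 32.7 CPM in ABA. All wild type ABA libraries were below all wild type mock libraries, and in both mutants the groups overlapped. By edgeR the log2 change was -0.56 (SE 0.16, adjusted p = 0.00795) in wild type, 0.037 (SE 0.16, adjusted p = 0.884) in ros1-3 and -0.11 (SE 0.16, adjusted p = 0.627) in ros1-4, and the average of -0.21 (SE 0.09, adjusted p = 0.0557) did not pass. The average was called lower with library totals (-0.35) and with no filter on low counts (-0.20). It was also called without mock replicate 2 (-0.27) or ABA replicate 2 (-0.24) of ros1-3, or mock replicate 1 (-0.27) or ABA replicate 2 (-0.24) of ros1-4. Once the multiply aligned share was added to the model, the wild type value was -0.54 and did not pass (adjusted p = 0.0537 by edgeR). The tests of the difference gave 0.60 (SE 0.23, adjusted p = 0.994) for ros1-3 and 0.45 (SE 0.22, adjusted p = 1) for ros1-4 and did not pass.

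In wild type, CDKB2;2 stood at 18.02, 14.4 and 11.5 CPM in mock and at 9.63, 12.7 and 10.04 CPM in ABA. Mock libraries of ros1-3 stood at 21.4, 11.3 and 18.7 CPM and ABA libraries at 14.1, 17.3 and 15.9 CPM. Its ros1-4 level was 12.1, 20.11 and 19.3 CPM in mock and 10.6, 16.7 and 16.7 CPM in ABA. CDKB2;2 (AT1G20930) overlapped between mock and ABA in every genotype, with an average of -0.25 (SE 0.13, adjusted p = 0.111) by edgeR that did not pass. CDKB1;1, CDKB2;1 and CDKB2;2 each overlap a gene on the opposite strand. Reads that fit both genes would be left uncounted as ambiguous if the counting ignored strand.

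HINKEL is the kinesin and KNOLLE the syntaxin that build the cell plate at cytokinesis. In wild type, HINKEL stood at 23.8, 23.8 and 19.4 CPM in mock and at 13.3, 12.8 and 11.4 CPM in ABA. In ros1-3 it was at 27.7, 21.9 and 23.1 CPM in mock and at 14.6, 19.5 and 26.0 CPM in ABA. The ros1-4 libraries held 23.1, 19.6 and 24.7 CPM in mock and 10.98, 16.1 and 18.3 CPM in ABA. HINKEL (AT1G18370) libraries in ABA lay below mock in wild type and ros1-4, and in ros1-3 its ABA replicate 3 was among the mock values. The log2 change by edgeR was -0.81 (SE 0.18, adjusted p = 0.00118) in wild type, -0.27 (SE 0.19, adjusted p = 0.271) in ros1-3, -0.57 (SE 0.18, adjusted p = 0.0167) in ros1-4 and -0.55 (SE 0.11, adjusted p = 0.000122) in the average. Leaving out ros1-4 mock replicate 3 (-0.49) or ros1-4 ABA replicate 1 (-0.38) ended the ros1-4 call. In wild type, KNOLLE stood at 37.5, 31.4 and 28.1 CPM in mock and at 30.3, 34.1 and 31.0 CPM in ABA. Its ros1-3 level was 65.1, 32.5 and 48.5 CPM in mock and 44.6, 51.6 and 46.4 CPM in ABA. For ros1-4 the levels were 34.8, 35.9 and 39.4 CPM in mock and 26.4, 39.9 and 39.8 CPM in ABA. KNOLLE (AT1G08560) overlapped in each genotype. Its average by edgeR was -0.036 (SE 0.10, adjusted p = 0.787), with a 95% interval of -0.25 to 0.18. KNOLLE overlaps a gene on the opposite strand.

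D cyclins sense hormones and sugar and commit cells to the cycle. In wild type, CYCD3;3 stood at 10.5, 12.5 and 10.7 CPM in mock and at 8.03, 7.70 and 11.5 CPM in ABA. The ros1-3 libraries held 15.1, 10.8 and 16.4 CPM in mock and 8.53, 7.75 and 11.04 CPM in ABA. Mock libraries of ros1-4 stood at 10.6, 14.1 and 13.6 CPM and ABA libraries at 5.99, 7.05 and 10.3 CPM. CYCD3;3 (AT3G50070), which promotes division in young leaves together with the other CYCD3 genes, was low in ABA in ros1-4, where mock and ABA did not overlap, and overlapped in wild type and ros1-3. By edgeR its log2 change was -0.31 (SE 0.21, adjusted p = 0.255) in wild type, which did not pass, -0.63 (SE 0.23, adjusted p = 0.0327) in ros1-3, -0.68 (SE 0.22, adjusted p = 0.0149) in ros1-4 and -0.54 (SE 0.13, adjusted p = 0.000767) in the average. The ros1-3 call was lost without any 1 of 4 libraries (mock replicates 1 and 3 and ABA replicates 1 and 2, with values of -0.59 to -0.51), in DESeq2 (-0.62) and with the multiply aligned share in the model (-0.59). In ros1-4 it ended when mock replicate 2 (-0.61) or 3 (-0.62) or ABA replicate 1 (-0.51) was left out.

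The other tested D cyclins did not pass in any genotype. In wild type, CYCD3;2 stood at 54.6, 47.9 and 58.3 CPM in mock and at 56.1, 43.9 and 58.3 CPM in ABA. For ros1-3 the levels were 91.5, 63.5 and 59.7 CPM in mock and 68.9, 59.3 and 60.3 CPM in ABA. In ros1-4 it was at 55.6, 58.4 and 71.0 CPM in mock and at 54.3, 59.3 and 57.1 CPM in ABA. CYCD3;2 (AT5G67260) overlapped between mock and ABA in each genotype, with ros1-3 mock replicate 1 the highest library, and its average was -0.12 (SE 0.08, adjusted p = 0.224) by edgeR. In wild type, CYCD1;1 stood at 21.5, 17.1 and 23.1 CPM in mock and at 15.8, 19.5 and 23.2 CPM in ABA. Mock libraries of ros1-3 stood at 28.8, 19.9 and 24.8 CPM and ABA libraries at 25.8, 27.7 and 22.7 CPM. Its ros1-4 level was 21.3, 25.7 and 22.8 CPM in mock and 17.0, 23.4 and 21.3 CPM in ABA. For CYCD1;1 (AT1G70210) the groups overlapped in each genotype and the average was -0.079 (SE 0.09, adjusted p = 0.487) by edgeR. CYCD3;1 (AT4G34160), a D cyclin induced by cytokinin, had an average of 0.009 (SE 0.11) and a 95% interval of -0.22 to 0.23. Each of CYCD1;1, CYCD3;1 and CYCD3;2 overlaps another annotated gene.

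CDKA;1, the kinase present through the whole cycle and also in cells that have left it, was not called in any genotype or in the average. In wild type, CDKA;1 stood at 77.8, 90.0 and 85.6 CPM in mock and at 82.2, 74.3 and 83.3 CPM in ABA. In ros1-3 it was at 85.7, 83.6 and 76.9 CPM in mock and at 80.1, 75.9 and 75.5 CPM in ABA. The ros1-4 libraries held 79.6, 88.7 and 90.8 CPM in mock and 82.4, 81.2 and 83.5 CPM in ABA. CDKA;1 (AT3G48750) groups overlapped in each genotype, and its average was -0.08 (SE 0.05, adjusted p = 0.145) by edgeR, with a 95% interval of -0.18 to 0.016.

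Of the inhibitors, SIM alone passed. In wild type, SIM stood at 40.3, 42.5 and 37.5 CPM in mock and at 27.1, 27.6 and 27.6 CPM in ABA. Its ros1-3 level was 31.7, 35.0 and 29.5 CPM in mock and 28.7, 23.7 and 32.0 CPM in ABA. For ros1-4 the levels were 37.4, 33.2 and 29.2 CPM in mock and 27.7, 27.1 and 28.3 CPM in ABA. SIM (AT5G04470) ABA libraries were below the mock libraries in wild type and in ros1-4 and overlapped them in ros1-3. All wild type mock libraries were above all mutant mock libraries, a difference that was not called in ros1-3 (-0.31, adjusted p = 0.21 by edgeR) or in ros1-4 (-0.26, adjusted p = 0.595). By edgeR the log2 change was -0.54 (SE 0.11, adjusted p = 0.000278) in wild type, -0.19 (SE 0.12, adjusted p = 0.218) in ros1-3, -0.26 (SE 0.11, adjusted p = 0.0654) in ros1-4 and -0.33 (SE 0.06, adjusted p = 0.000124) in the average. SIM overlaps AT5G04475 on the opposite strand. If the counting ignored strand, reads that fit both genes would be left uncounted as ambiguous.

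KRP proteins bind and block cyclin and kinase complexes, and KRP1 is known to respond to ABA. In wild type, KRP1 stood at 26.3, 29.4 and 35.8 CPM in mock and at 33.5, 41.1 and 41.1 CPM in ABA. The ros1-3 libraries held 38.8, 44.8 and 40.4 CPM in mock and 40.7, 47.4 and 56.1 CPM in ABA. Mock libraries of ros1-4 stood at 43.8, 30.8 and 25.8 CPM and ABA libraries at 42.2, 32.1 and 32.5 CPM. KRP1 (AT2G23430) overlapped between mock and ABA in each genotype and its average of 0.20 (SE 0.09, adjusted p = 0.0683) by edgeR, above 0, did not pass. It was called higher with no filter on low counts (0.22) and without any 1 of 5 libraries (wild type mock replicate 3 and ABA replicate 1, ros1-3 ABA replicate 1, ros1-4 mock replicate 1 and ABA replicate 2, with values of 0.23 to 0.29). In wild type, KRP4 stood at 5.76, 7.60 and 6.17 CPM in mock and at 5.39, 5.74 and 4.80 CPM in ABA. For ros1-3 the levels were 6.93, 8.06 and 4.18 CPM in mock and 4.38, 4.21 and 6.18 CPM in ABA. In ros1-4 it was at 6.57, 4.60 and 6.17 CPM in mock and at 4.71, 6.49 and 4.56 CPM in ABA. KRP4 (AT2G32710), the only tested member with several transcript models and overlapped by a gene on the opposite strand, was below mock in all wild type ABA libraries and overlapped in the mutants. Its average was -0.28 (SE 0.14, adjusted p = 0.0805) by edgeR and did not pass. KRP2 (AT3G50630, -0.091, SE 0.10) and WEE1 (AT1G02970, a kinase that inhibits CDKs after DNA damage, -0.51, SE 0.26) did not pass either. With library totals KRP4 (-0.42), KRP2 (-0.23) and WEE1 (-0.65) were called lower in the average. KRP4 was also called without ros1-3 mock replicate 3 (-0.35), ros1-3 ABA replicate 3 (-0.35) or ros1-4 ABA replicate 2 (-0.33). WEE1 was also called without wild type mock replicate 3 (-0.62) or ros1-4 mock replicate 3 (-0.62).

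Averaged over the tested genes of a phase, the libraries separated by treatment most clearly in the genes counted as S phase. The measure is the mean over genes of log2(CPM + 0.5) relative to the wild type mock mean, and it is given as a description with no test. Over the 6 S phase genes the mock libraries were at -0.18 to 0.23 in wild type, 0.13 to 0.41 in ros1-3 and -0.27 to 0.02 in ros1-4. The ABA libraries were at -0.79 to -0.52, -0.58 to -0.09 and -1.15 to -0.61, without overlap within a genotype. Over the 17 genes of G2 and M phase wild type ABA (-0.47 to -0.30) and ros1-4 ABA (-0.59 to -0.12) lay below their mock libraries (-0.18 to 0.18 and -0.05 to 0.30). The ros1-3 libraries overlapped there, at -0.12 to 0.47 in mock and -0.04 to 0.01 in ABA. Over the 4 D cyclins mock and ABA overlapped in wild type (-0.11 to 0.09 and -0.26 to 0.12) and in the mutants. Of single libraries, ros1-3 mock replicate 1 stood highest over the 33 genes (0.40) and ros1-4 ABA replicate 1 lowest (-0.60).

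**Figure D4:**
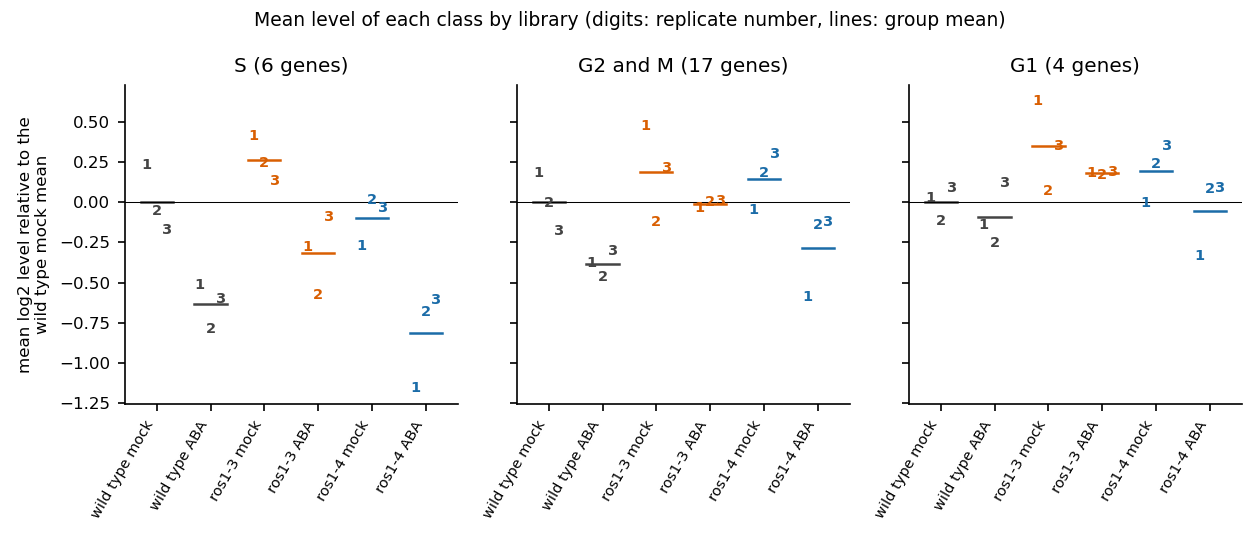
Mean log2 level of the tested S phase, G2 and M phase and G1 genes in each library, relative to the wild type mock mean (y axis), by group (x axis), with the replicate number as the point and a line at the group mean. S phase values in ABA are all below those in mock of the same genotype, with ros1-4 ABA replicate 1 lowest at -1.15, while G1 values overlap.

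Other genes of the same pathways, listed in 7 groups of 66 genes, were set beside these members in the average over the genotypes. Like the members, they were listed with earlier results of these data known, so their shares are a description. Of them 50 were tested, 23 were lower (46.0%, beside 30.3% of all loci) and 4 higher (beside 29.1% of all loci), with a median of -0.31. The same shares of all loci are the background of the counts by group. Among DNA replication genes 11 of 16 were tested, 8 fell and 1 rose. The ribonucleotide reductase subunit genes RNR1 (-0.73, SE 0.07, adjusted p = 2.51e-09 by edgeR) and TSO2 (-0.73, SE 0.07, adjusted p = 1.79e-08), which make the building blocks of DNA, and the licensing factor gene CDT1A (-0.72, SE 0.13, adjusted p = 7.66e-05) fell by like amounts. ICU2, the catalytic subunit of DNA polymerase alpha, fell (-0.55, SE 0.11), and RNR2A, another reductase subunit, rose (0.28, SE 0.07), a call lost with scaling to library totals (0.14). Of the genes for histone H3.1, the variant laid down at replication, 4 of 5 fell, HTR2 (-0.58, SE 0.07), HTR1 (-0.51, SE 0.07), HTR9 (-0.49, SE 0.09) and HTR13 (-0.56, SE 0.14). These copies are alike, and a few 50-base stretches of HTR3 (1.28%) and HTR9 (1.36%) occur more than once in the genome.

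Among 16 genes of mitosis and cytokinesis 13 were tested, 4 fell and 2 rose. AUR1, an Aurora kinase of the spindle, fell (-0.49, SE 0.09, adjusted p = 5.09e-05 by edgeR), as did TSO1 (-0.21, SE 0.06), a DNA-binding protein of a cell cycle repressor complex, while KEULE (0.25, SE 0.04), which acts with KNOLLE, and TES (0.46, SE 0.08), a kinesin related to HINKEL, rose. PANS1 and EDE1 were the other called genes that fell, and EDE1 lost its call without any 1 of 5 libraries (-0.39 to -0.35) and in DESeq2 (-0.43). Of 7 E2F and retinoblastoma genes 3 were tested and 0 called by edgeR, RBR1 (0.17, SE 0.12), E2FB (0.26, SE 0.20) and DPB (0.27, SE 0.21). All 7 have several transcript models, so reads that fit several models of a locus are missing from their counts. Their lack of calls therefore does not show that these genes are unchanged. Of 11 further inhibitors and endocycle genes 7 were tested and 2 fell, KRP7 (-0.98, SE 0.17) and AT1G08180 (-0.52, SE 0.08), while SMR1 (0.16, SE 0.07) and KRP5 (-0.34, SE 0.16) did not pass. Of 7 genes for kinase activators and CKS subunits 3 fell, CKS2 (-0.68, SE 0.10), CYCH;1 (-0.56, SE 0.09) and CDKD;3 (-0.27, SE 0.09, lost in DESeq2), and CDKD;1 (-0.29, SE 0.17) did not pass. Among DNA damage genes SOG1 (-0.34, SE 0.10) and BRCA1 (-0.43, SE 0.16) fell and PARP2 rose (0.42, SE 0.17). BRCA1 was lost without any 1 of 5 libraries (-0.40 to -0.33), in DESeq2 (-0.43) and with no filter (-0.41), and PARP2 without any 1 of 9 libraries (0.35 to 0.40), in DESeq2 (0.43) and with library totals (0.28).

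Between genotypes few members passed the test. In mock 0 of 33 were called in ros1-3 against wild type by edgeR, beside 1.32% of all loci, and 0 in ros1-4, beside 0.448%. DESeq2 called 0 as well. In ros1-3 9 members had an unadjusted p under 0.05, beside 12.2% of all loci, and in ros1-4 3, beside 6.91%. In ros1-3 27 of 33 values were above 0, with a median log2 difference of 0.32 beside 0.01 over all loci. In ros1-4 24 of 33 were, with a median of 0.12 beside 0.004. The share of all loci above 0 was not counted, and the members come from the same libraries, so their signs are not independent. The ros1-4 values were 18 of 33 above 0 without wild type mock replicate 3 (median 0.06) or without ros1-4 mock replicate 3 (median 0.04), and its median was 0.21 when ros1-4 mock replicate 1 was left out, 0.079 when wild type mock replicate 2 was, and 0.19 with the multiply aligned share in the model. The ros1-3 median was 0.15 without ros1-3 mock replicate 1, the library that stood highest in these genes, and 0.16 without wild type mock replicate 3. The members in ros1-3 with the largest values were CYCA3;1 (0.79, SE 0.41), KNOLLE (0.62, SE 0.18) and CDKB1;1 (0.62, SE 0.21), and none passed. KNOLLE was called higher in ros1-3 mock with no filter on low counts (0.62) and without ros1-3 mock replicate 2 (0.85).

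In ABA 1 of 33 was called in ros1-3 against wild type (3.03%), in the higher direction, beside 1.72% of all loci in either direction and 0.738% higher. It was CDKB2;1, whose ros1-3 libraries in ABA (35.8, 40.5 and 32.5 CPM) all lay above the wild type ones (21.7, 19.6 and 22.8 CPM). Its log2 difference was 0.76 (SE 0.16, adjusted p = 0.0135) by edgeR, and the call was lost without wild type ABA replicate 2 (0.71) or ros1-3 ABA replicate 2 (0.67). In ros1-4 it was at 0.60 (SE 0.16, adjusted p = 0.0987) by edgeR, with all 3 libraries above wild type, and did not pass. It was called with no filter on low counts (0.61) and without ros1-4 ABA replicate 1 (0.72). This comparison shares the wild type ABA libraries with the fall of CDKB2;1 in wild type given above. HINKEL (0.68, SE 0.19, adjusted p = 0.0825 by edgeR) and CYCB2;4 (0.73, SE 0.26, adjusted p = 0.198) came next in ros1-3 by size among genes whose libraries did not overlap, and did not pass. HINKEL was called higher with no filter on low counts (0.68) and without ros1-3 ABA replicate 1 (0.86). KNOLLE was called higher with no filter (0.58) and with the compared groups alone (0.58), and CYCD3;1 with the compared groups alone (0.43). In ros1-3 13 members had an unadjusted p under 0.05, beside 12.3% of all loci. Over the 33 genes the ros1-3 median was 0.30, beside 0.001 over all loci, with 27 values above 0. The median ranged from 0.25 to 0.38 without any 1 library. In ros1-4 0 members were called in ABA by edgeR and 0 by DESeq2, beside 0.681% of all loci. There 1 member had an unadjusted p under 0.05, beside 8.16% of all loci, and the median was 0.02, beside -0.001 over all loci.

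Library properties differed between ros1-3 and wild type too. The ros1-3 libraries held 3304038 to 4647380 counted reads and the wild type libraries 3865324 to 10275773. In mock the summed root meristem genes were at 69.5 to 80.6 CPM in ros1-3 and 82.4 to 89.8 CPM in wild type, without overlap, and the summed shoot meristem genes at 29.2 to 57.5 CPM and 25.9 to 31.3 CPM, with overlap. The root meristem sum is mostly the level of SCR and SHR. With the multiply aligned share in the model the ros1-3 medians were 0.34 in mock and 0.31 in ABA. The part of read number and tissue markers in these differences was not tested.

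**Figure D5:**
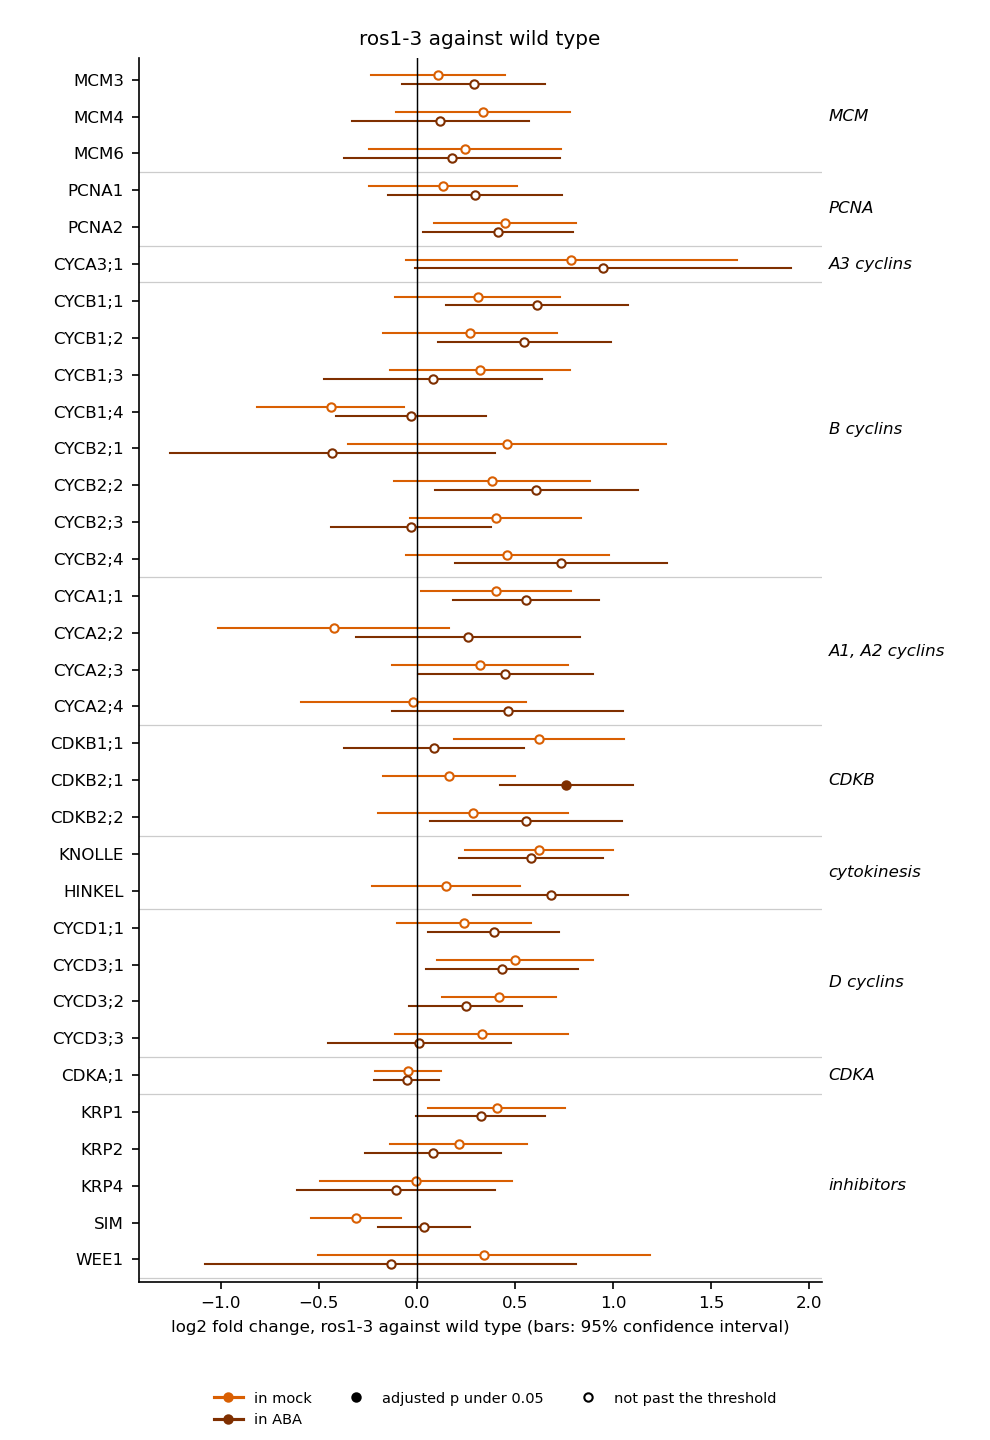
Log2 fold change of ros1-3 against wild type (x axis) for each of the 33 tested genes (y axis, by role), in mock and in ABA, with 95% confidence intervals as bars and filled points for adjusted p under 0.05. In each condition 27 of the 33 points lie above 0, and CDKB2;1 in ABA is the filled point.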

How the data were processed

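Messenger RNA of 18 libraries was analysed, 3 in each of 6 groups of genotype and treatment. The submitters' processing notes name the build TAIR10 and the tools HTSeq 0.6.1, SAMtools, TopHat2 2.0.8 and Trim Galore 0.2.8, and the authors deposited raw counts per transcript model with no normalization. Strand use in the counting: not given in the sources used here. Each file lists 40466 models of 32399 loci and 5 summary rows that name no gene and were left out. Those rows held 36.7% to 44.5% of a file's total. Reads that fitted several features were 32.1% to 33.2% of the counted and ambiguous reads together, which lowers the counts of the 5883 loci with several models.

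Counts of the models of a locus were summed. edgeR 4.0.16 in R 4.3.3 was fitted to all 18 libraries with 1 mean per group, TMM scaling, filterByExpr (15853 loci passed) and the quasi-likelihood test, with Benjamini-Hochberg adjustment over all tested loci at 0.05. SE and 95% intervals come from the same fit. CPM are counts scaled to a library total of 1000000 with the TMM factors. Alternatives were DESeq2 1.42.0, DESeq2 size factors, library totals, no filter, the replicate number as a block, the multiply aligned share as a covariate, the model with most reads, the compared groups alone, and each library left out in turn. Tested on simulated data of the wild type ABA contrast, with counts for 15853 loci, the fit called 82% of 100 genes changed 2-fold, 95% of 100 changed 4-fold and 0.03% of unchanged genes. All simulated loci had the same spread beyond counting noise (a coefficient of variation of 0.096), and few loci changed. These rates therefore need not hold for members that vary more or have few reads. No replicates were identical.

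Symbols come from the locus lists and were checked against RefSeq TAIR10.1, in which 31912 of the loci were found. The members and gene lists were chosen with earlier results of these data known. Named with all libraries were up to 3 tested members of a role group with the smallest p for the averaged ABA effect (1 where none was called) and members called between genotypes. Of other lists, up to 4 genes were named by the same p. For groups with a called member all 3 are given, and CYCA2;2, CYCD3;1, KRP2 and WEE1 are given by their averages. A gene of the other lists is counted in their totals and not reported here.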

Additional observations from a re-analysis of the deposited data

How the results depend on the processing

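The count of members called in the average over the genotypes was 16, all lower. It became 25, all lower, with library totals, 20 (19 lower) with no filter on low counts, and 13 to 20 (13 to 19 lower) without any 1 library. The 1 higher call in some of these fits was KRP1. Lower calls of the average gained under several alternatives were those of CYCB1;2, CDKB2;1, CDKB2;2, KRP4 and WEE1. CYCA1;1, CYCD3;2, CDKA;1 and KRP2 gained theirs with library totals alone, and CYCA3;2 with no filter. Within single genotypes lower calls were gained by CYCA2;4 in wild type, CYCB1;1 and SIM in ros1-3, and SIM, CYCA1;1, MCM4 and CYCA3;2 in ros1-4. The average had no value for the compared groups alone, since all 6 groups enter it. Without any 1 library the count, all lower, was 7 to 10 in wild type (10 as reported), 2 to 6 in ros1-3 (7) and 7 to 12 in ros1-4 (11). Calls between genotypes were all higher. For ros1-3 against wild type in ABA their count was 1, and became 3 with no filter, 3 with the compared groups alone and 0 to 2 without any 1 library. In mock it was 0 for ros1-3, and 1 with no filter or 0 to 1 without any 1 library. For ros1-4 in ABA it was 0, and 1 with no filter or 0 to 1 without any 1 library. The interaction counts stayed at 0 under all alternatives run. The cause of these moves was not tested. The replicate block gave 10, 7, 10 and 16 lower members in wild type, ros1-3, ros1-4 and the average. Few libraries with the same replicate number varied together: of 45 such pairs 6 correlated above 0.1 (median -0.03). The highest value was 0.35, for ros1-4 mock and ros1-4 ABA of replicate 1, and pairing within ros1-4 was not tested separately. Of the alternative values for called members 731 kept the call, 75 lost it and 0 changed sign.

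Of the 9 untested members, 8 have several models and were not measured at this counting. Several tested members rest on few reads per library, and detection of changes under 2-fold was not simulated.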
